A study of Homo sapiens with 66 samples.

Results

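HIF-1α and HIF-2α binding was compared in RCC4 cells by chromatin immunoprecipitation and sequencing (ChIP-seq), using the 4 peak lists of the α subunits, 2 per isoform, out of 50 peak lists in the series. These 4 lists held 15107 of the 131425 peaks. A site was counted for an isoform when peaks of both of its replicates overlapped by at least 1 bp, which gave 898 HIF-1α sites and 1210 HIF-2α sites. Of these, 256 sites had no peak in either HIF-2α list (HIF-1α-only), 295 had no peak in either HIF-1α list (HIF-2α-only) and 461 were called in all 4 lists (both isoforms). The merged peaks of the 4 lists covered 11066 loci, of which these classes made up 2.31%, 2.67% and 4.17%. A further 181 HIF-1α sites had a HIF-2α peak in 1 replicate, and 453 HIF-2α sites had a HIF-1α peak in 1 replicate.

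RCC4 derives from a kidney cancer, has no working VHL and so keeps HIF-α in normal oxygen, and the labels place all of its libraries in normoxia. The antibodies were rabbit polyclonals, PM14 against HIF-1α and PM9 against HIF-2α, each with replicates 1 and 2. HIF-1β was immunoprecipitated with a commercial rabbit polyclonal antibody, and its lists are numbered repeats 2 and 3. The other lists come from HKC-8 renal tubular cells, wild type or knocked out for HIF-1α or HIF-2α, and from HepG2 liver cancer cells, all kept in hypoxia. RCC4 is a single line with a single antibody per isoform, so isoform, antibody and line-specific effects cannot be told apart within it. The study calls replicates independent ChIP-seq experiments without saying whether they came from separate cultures, so p-values measure the spread between these libraries, which may be technical. Gene expression was not among the measurements used, and the identity of the line, which the study checked through VHL mutations seen in RNA-seq, was not checked here.

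Hypoxia-inducible factor (HIF) is a dimer of an oxygen-labile α subunit and the constitutive HIF-1β subunit, and it binds the hypoxia response element (HRE), whose core is RCGTG (R is A or G). Prolyl hydroxylation marks HIF-α for destruction by VHL when oxygen is present, so cells without VHL accumulate HIF-α in normal oxygen. In clear cell kidney cancer HIF-2α is regarded as the isoform that favours tumour growth, while HIF-1α is known for driving glycolytic genes.

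The following stretches of GRCh37, plus strand, surround the HRE core nearest to the site centre, with RCGTG cores on either strand in capitals. They belong to sites near the front of their class by rank that have a core outside annotated UTRs, and are shown because the classes differed in how often such a core was present.
HIF-1α-only, FAM174B, chr15:93352392-93352456: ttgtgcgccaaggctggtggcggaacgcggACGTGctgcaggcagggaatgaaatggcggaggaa
HIF-1α-only, COX20, chr1:244998580-244998644: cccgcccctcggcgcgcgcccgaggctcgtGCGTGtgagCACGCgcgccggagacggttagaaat
HIF-1α-only, CGGBP1, chr3:88108277-88108341: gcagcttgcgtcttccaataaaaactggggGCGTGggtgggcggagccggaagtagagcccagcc
HIF-2α-only, ADTRP, chr6:11653565-11653629: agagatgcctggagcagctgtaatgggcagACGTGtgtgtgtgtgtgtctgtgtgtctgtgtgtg
HIF-2α-only, AP1S3, chr2:224681122-224681186: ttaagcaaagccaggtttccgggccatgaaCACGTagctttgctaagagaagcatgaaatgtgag
HIF-2α-only, TMEM170B, chr6:11610038-11610102: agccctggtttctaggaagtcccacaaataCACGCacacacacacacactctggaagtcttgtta
Both isoforms, SNAPC1, chr14:62217984-62218048: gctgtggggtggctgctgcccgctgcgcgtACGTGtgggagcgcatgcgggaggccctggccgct
Both isoforms, ARRDC3, chr5:90576583-90576647: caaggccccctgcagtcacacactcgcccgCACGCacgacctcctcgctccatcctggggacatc
Both isoforms, ADM, chr11:10329513-10329577: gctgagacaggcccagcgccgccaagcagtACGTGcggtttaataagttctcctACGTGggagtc

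The AP-1 motif, TGASTCA (S is C or G), is the element bound by FOS and JUN family dimers. It is marked in capitals in 3 HIF-2α-only sites that carry it, chosen from near the front of the class, since this motif was more frequent in that class.
HIF-2α-only, ROBO2, chr3:76546921-76546987: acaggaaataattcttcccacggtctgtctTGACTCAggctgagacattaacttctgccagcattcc
HIF-2α-only, TMEM63B, chr6:44002510-44002576: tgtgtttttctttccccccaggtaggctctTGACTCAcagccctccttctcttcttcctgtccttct
HIF-2α-only, TANGO6, chr16:68955697-68955763: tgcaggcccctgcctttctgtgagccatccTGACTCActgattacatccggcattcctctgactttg

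In these windows the HIF-1α-only cores lay at or near promoters: that of FAM174B in an intron 0.614 kb inside the gene, that of COX20, an assembly factor of cytochrome c oxidase, 0.342 kb upstream of the start, and that of CGGBP1, a protein that binds CGG repeats, 0.082 kb upstream of the nearest start (distances of the site centre). The HIF-2α-only cores lay 82.3 kb from ADTRP, 21.1 kb from AP1S3, a clathrin adaptor subunit, and 72.0 kb from TMEM170B. Control windows were centred 2 kb to either side of the sites and reached 100 bp each way, so they were longer than the stretches printed. Among 3292 of them, 21.9% held RCGTG and 3.58% held TGASTCA. A match is a description of the letters and not a measured contact.

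HIF-1α-only sites were mostly at promoters and HIF-2α-only sites were mostly far from them. A transcription start site (TSS) of a protein-coding gene lay within 1 kb of the site centre at 149 of 256 HIF-1α-only sites (58.2%, 95% confidence interval 51.9 to 64.3%) and at 7 of 295 HIF-2α-only sites (2.37%, 0.959 to 4.83%). Sites of both isoforms lay between them, with 91 of 461 at promoters (19.7%, 16.2 to 23.7%). The median distance to a TSS was 0.307 kb, 50.6 kb and 20.4 kb in the same order, and 33.2% of HIF-2α-only sites were more than 100 kb from any. Intervals here are exact Clopper-Pearson intervals over sites, which cover counting error only, since sites of a list are not replicates.

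The base composition followed the same order. The ratio of observed to expected CpG within 100 bp of the site centre, which is high in CpG islands, was 0.663 ± 0.328 at HIF-1α-only sites, 0.394 ± 0.275 at sites of both isoforms and 0.259 ± 0.157 at HIF-2α-only sites (SD over sites). Windows 2 kb away gave 0.265, 0.232 and 0.214.

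An HRE core was within 100 bp of the centre at 67.6% of HIF-1α-only sites (61.5 to 73.3%), 65.5% of sites of both isoforms (61.0 to 69.8%) and 44.1% of HIF-2α-only sites (38.3 to 49.9%). Windows 2 kb away held a core in 26.4%, 22.02% and 20.3%. The core contains a CpG, and these windows did not match the sites in CpG ratio. That ratio was 0.265 against 0.663 at HIF-1α-only sites and 0.214 against 0.259 at HIF-2α-only sites. The part of base composition in the core shares was not tested. The core with a preceding A, ACGTG, was present at 45.3% of HIF-1α-only, 54.4% of shared and 28.8% of HIF-2α-only sites, and GCGTG at 39.5%, 25.8% and 20.7%. The lower share at HIF-2α-only sites was also seen away from promoters, where 43.8% (37.9 to 49.7%) held a core, against 62.6% (52.7 to 71.8%) of HIF-1α-only and 66.8% of shared sites. Neither the HRE core nor the AP-1 motif was found at 46.8% of HIF-2α-only sites, 29.7% of HIF-1α-only sites and 31.7% of shared sites.

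The AP-1 motif showed the opposite order. It was within 100 bp of the centre at 20% of HIF-2α-only sites (15.6 to 25.03%), 17.8% of sites of both isoforms (14.4 to 21.6%) and 6.64% of HIF-1α-only sites (3.92 to 10.4%), with 3.39% to 3.91% in the windows 2 kb away. At promoters 1 of 149 HIF-1α-only sites held it. Away from promoters the shares were 14.95% (8.80 to 23.1%) for HIF-1α-only, 20.5% (16.0 to 25.6%) for HIF-2α-only and 20.3% for shared sites, so the intervals of the 3 classes overlapped there.

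HIF-1β, the partner of both α subunits, was called at 71.4% of sites of both isoforms (67.0 to 75.5%), 43.0% of HIF-1α-only sites (36.8 to 49.3%) and 4.75% of HIF-2α-only sites (2.62 to 7.83%) when either repeat was counted. Both repeats had a peak at 50.3%, 21.1% and 0.678%. The HIF-1β lists were short, with 911 and 1305 peaks, and 33.5% and 33.0% of those peaks were at promoters. HIF-2α-only sites also ranked lower in their own lists than shared sites did, as given with the ranks, and the part of depth in the missing HIF-1β calls was not tested. The absence of a peak is the absence of a call, and signal below the caller's threshold cannot be seen in peak lists. For RCC4 the paper describes HIF-1β read signal that exceeds the local background at every HIF-1α and HIF-2α site it called. Read signal was not measured here.

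**Figure D1:**
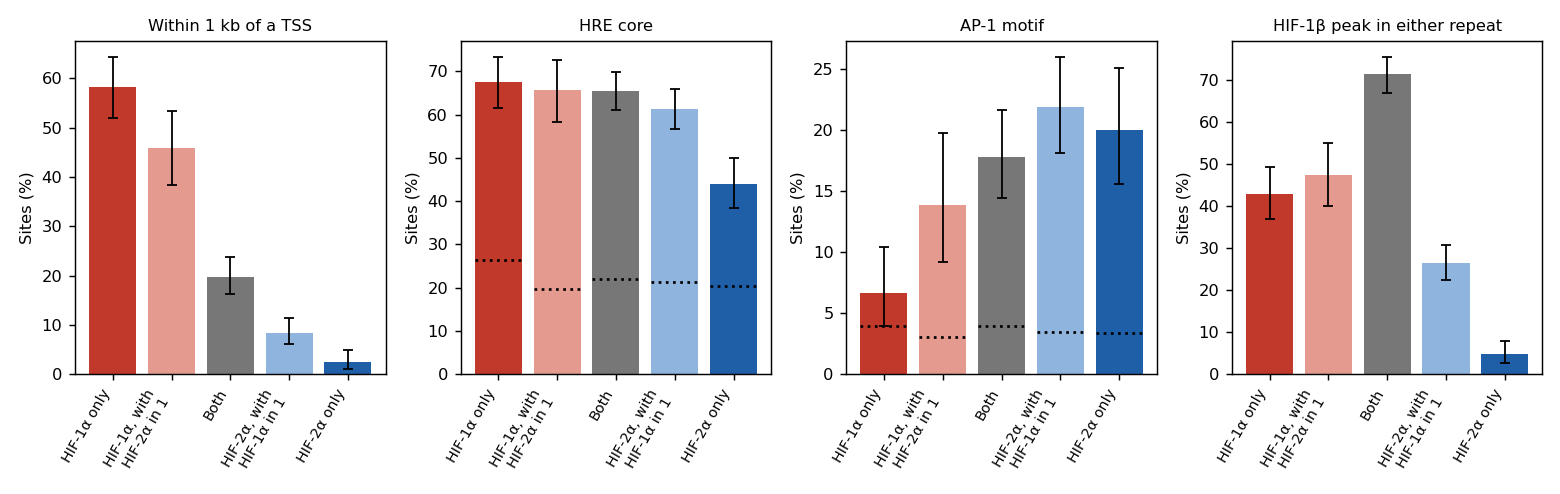
Share of RCC4 sites (%) in each class, from HIF-1α-only at the left to HIF-2α-only at the right, that lie within 1 kb of a TSS, hold an HRE core, hold an AP-1 motif or overlap a HIF-1β peak; error bars are 95% Clopper-Pearson intervals and dotted lines the share in windows 2 kb away. The promoter share falls from 58.2% to 2.37%, while the HIF-1β share is highest, at 71.4%, in the middle class.

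The sites called for the second isoform in 1 replicate filled the gap between the classes. Of the 181 HIF-1α sites with 1 HIF-2α peak, 45.9% were at promoters, and of the 453 HIF-2α sites with 1 HIF-1α peak, 8.39% were. The replicate that held the extra peak was nearly always the longer list: HIF-2α replicate 1 at 160 of 181 (88.4%) and HIF-1α replicate 1 at 439 of 453 (96.9%). List length therefore moved with the class a site was placed in. Dropping all peaks with a score below 100 left 145, 171 and 259 sites in the HIF-1α-only, HIF-2α-only and shared classes. Keeping in each list only as many of the best scores as the shortest list held gave 274, 382 and 402.

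The HIF-1α-only sites furthest forward in the lists were at promoters for 8 of 10. The first was at NARF, a prelamin A-binding protein, centred 0.142 kb inside the gene in a UTR (chr17:80415174-80417580). It ranked 22nd and 8th by score in HIF-1α replicates 1 and 2, and 18th and 51st in the HIF-1β lists. FAM174B ranked 29th and 15th, RLF, a zinc finger protein gene, 20th and 34th, and COX20 62nd and 49th. The other 6 of the 10 best ranked were at VGLL4, a TEAD cofactor, CGGBP1, AIG1, CBX5, which encodes the heterochromatin protein HP1α, FBXO42, an F-box protein gene, and TMEM45A. Of these 10, the AIG1 site, 4.31 kb from the start, was the most distant, and all but AIG1 had a peak in both HIF-1β lists.

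The HIF-2α-only sites furthest forward lay in introns or between genes. The first was 18.3 kb upstream of the nearest start of SMYD3, a lysine methyltransferase gene, in an intron of another SMYD3 transcript (chr1:246598428-246599517), and it ranked 25th and 10th in HIF-2α replicates 1 and 2. The second was 7.02 kb upstream of SNAPC1, a subunit of the snRNA-activating complex (chr14:62221536-62222704), ranked 87th and 25th. A separate site 11.1 kb upstream of SNAPC1 was called for both isoforms and ranked 3rd and 4th in the HIF-1α lists and 10th and 17th in the HIF-2α lists. The third, with the AP-1 motif printed above, lay in an intron of ROBO2, a Slit receptor gene, and ranked 233rd and 121st. The other 7 were nearest to ADTRP, KRBOX4, GADD45B, a stress-induced gene, AP1S3, PDGFC, a platelet-derived growth factor gene, RGS20 and IGFBP3, which binds insulin-like growth factors. Of these 10 sites, 2 held an HRE core within 100 bp of the centre, and 1, that near IGFBP3, had a HIF-1β peak, in 1 repeat.

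Sites of both isoforms ranked further forward than those of a single isoform. Those with the best mean rank lay near SNAPC1, TMEM63B, ARRDC3, an arrestin-domain protein gene, ADM, which encodes the vasodilator adrenomedullin, PDE10A, a phosphodiesterase gene, LDHA, lactate dehydrogenase A, ZNF395 (2 sites), BHLHE40, a basic helix-loop-helix repressor, and COL4A1, a basement membrane collagen chain. The site 102.5 kb from ARRDC3 (chr5:90575213-90578055) ranked 43rd and 10th for HIF-1α and 4th and 1st for HIF-2α, and was called in all 44 lists outside RCC4. LDHA ranked 17th and 21st for HIF-1α and 22nd and 23rd for HIF-2α, so its 4 ranks lay close together.

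Single-isoform and shared sites differed in median rank within a list, though their quartile ranges overlapped in every list but HIF-2α replicate 1. Percentile ranks count from 0 for the highest score. The median HIF-1α-only site stood at 13.99 and 31.3 in HIF-1α replicates 1 and 2, against 7.68 and 16.6 for sites of both isoforms. The median HIF-2α-only site stood at 31.2 and 34.6 in HIF-2α replicates 1 and 2, against 8.10 and 11.5. Of the 50 HIF-1α sites with the best mean rank, 42 had HIF-2α in both replicates and 4 in neither, and of the corresponding 50 HIF-2α sites 46 had HIF-1α in both and 2 in neither. Among the best 250, 30 HIF-1α sites and 5 HIF-2α sites lacked the other isoform.

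The strongest single-isoform sites differed in position too. In the leading 10% of both of their lists were 22 HIF-1α-only sites, of which 18 were at promoters, 13 held an HRE core, 0 held the AP-1 motif and 20 had a HIF-1β peak. The 6 HIF-2α-only sites in the leading 10% of both lists had 0 at promoters, 0 with an HRE core, 1 with the AP-1 motif and 1 with HIF-1β. At a score of at least 100 in both lists, 63.5% of 96 HIF-1α-only sites and 1.30% of 77 HIF-2α-only sites were at promoters, 64.6% and 46.8% held a core, and 61.5% and 9.09% had HIF-1β.

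**Figure D2:**
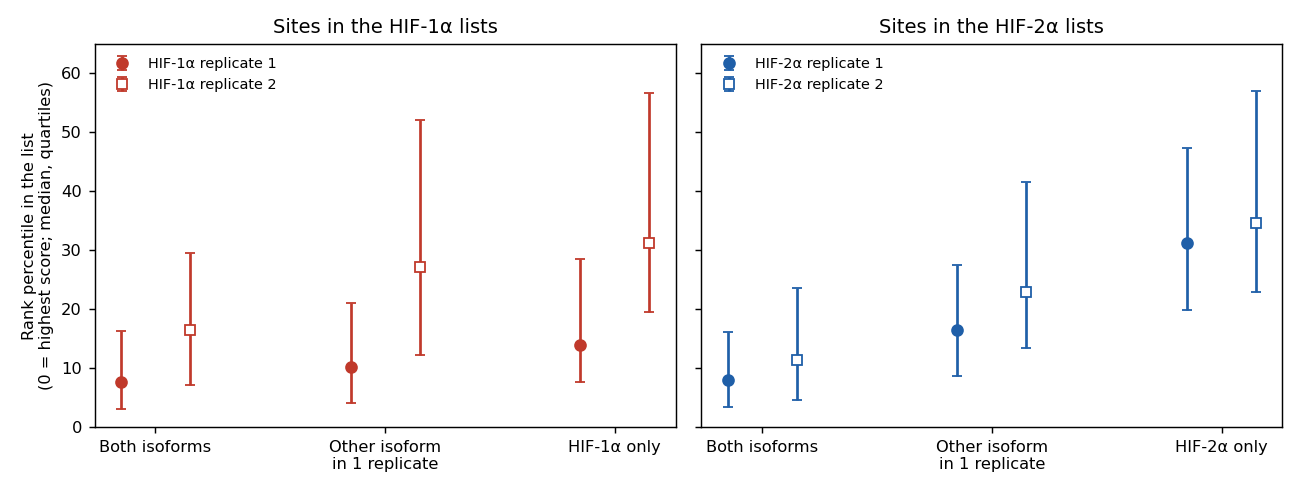
Rank percentile of sites within each HIF-1α list (left) and HIF-2α list (right), 0 being the highest score, by class; points are medians and bars quartiles over sites, filled for replicate 1 and open for replicate 2. Sites of both isoforms stand furthest forward, with medians of 7.68 and 16.6 for HIF-1α and 8.10 and 11.5 for HIF-2α.

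The class sites were assigned to 251, 268 and 435 nearest protein-coding genes for HIF-1α-only, HIF-2α-only and both, which were 1.27%, 1.35% and 2.2% of 19794 genes. With the 2 intermediate classes, 1329 genes (6.71%) had a site of either isoform. The nearest gene is a positional label and was not shown to be the target. HIF-1α-only and HIF-2α-only sites shared 7 nearest genes: ABLIM1, ADAMTS3, DUSP21, NFKBIZ, NTM, TBX15 and TENM2. CITED2, which encodes a competitor of HIF for the coactivator p300, had 7 sites, the most of any gene, of which 3 were HIF-2α-only and 0 HIF-1α-only. Of the 7 sites 1 was 0.035 kb from the CITED2 start, and the others lay 213 to 677 kb upstream.

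Most glucose metabolism genes with a site carried one of both isoforms. Of 19 glycolysis and glucose uptake genes 15 (78.9%) had a site, 10 of them a site of both isoforms. HIF-1α-only sites lay at SLC2A1, the glucose transporter GLUT1 (ranked 186th and 1188th in HIF-1α replicates 1 and 2), HK1, a hexokinase (118th and 380th), and ALDOC, an aldolase (241st and 106th), each within 0.464 kb of a start. SLC2A1 also had a shared site 3.24 kb upstream. A further SLC2A1 site, 0.424 kb from a start, ranked 56th and 410th in the HIF-2α lists and had a HIF-1α peak in replicate 1 only. HIF-2α sites with a HIF-1α peak in 1 replicate lay at 4 genes, and such a site was the only one of PFKP, a phosphofructokinase. The single HIF-2α-only site of the list was 24.8 kb upstream of ENO1, enolase 1, and ranked 3872nd and 1703rd in the HIF-2α lists. Of 9 lactate and pyruvate genes 4 had a site, and of 8 glycogen genes 6 did, with a HIF-1α-only site at PPP1R3E, a regulatory subunit that targets protein phosphatase 1 to glycogen (142nd and 165th).

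Among growth genes with a site, HIF-2α-only sites and shared sites were at 4 genes each. Of 17 growth factor, receptor and cell cycle genes 6 had a site, and 4 of these had a HIF-2α-only site: CDKN1A, the cell cycle inhibitor p21 (ranked 1252nd and 678th in HIF-2α replicates 1 and 2), the proto-oncogene MYC (1423rd and 1052nd, 413 kb away), TGFA, an EGF receptor ligand (663rd and 1422nd), and IGFBP3 (410th and 262nd). All 4 sites were more than 9 kb from a start and none held an HRE core within 100 bp of the centre. No gene of the list had a HIF-1α-only site, which is near the background, since 1.27% of all genes had one. A HIF-2α-only site was at 4 of the 17 genes, against 1.35% of all genes. MYC, TGFA and IGFBP3 also had a shared site. A HIF-2α site with a HIF-1α peak in 1 replicate was at 4 genes of the list, and the reverse at 1, MYC. These counts are small, and the lists were assembled with earlier results of these data known.

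The remaining lists had few sites of a single isoform. HIF-1α-only sites lay at the promoters of DDIT4, an mTOR inhibitor, P4HA2, a collagen prolyl hydroxylase, and VLDLR, a lipoprotein receptor. Others lay 53.8 kb from KDM7A, a histone demethylase, 80.2 kb from NDRG1, and 97.3 and 95.8 kb from the transcription factor gene SIM1. HIF-2α-only sites lay 3.92 kb from LOXL2, a lysyl oxidase, 4.52 kb from FTH1, ferritin heavy chain, and 64.9 and 99.5 kb from JUN, a component of AP-1. More distant ones were assigned to COL4A1 (171 kb), LPIN1, a phosphatidate phosphatase (237 kb), and CITED2 (213, 479 and 677 kb). DDIT4, NDRG1, LOXL2, JUN, COL4A1 and CITED2 each had at least 1 shared site as well. DDIT4 also had a HIF-2α site 24.3 kb away, ranked 26th and 90th in the HIF-2α lists, with a HIF-1α peak in replicate 1 only. With sites of any class were 6 of 12 genes for HIF subunits and oxygen sensing, 7 of 17 vascular and secreted factors, 3 of 6 for pH regulation, 7 of 12 for mitophagy, mTOR and cell death, and 5 of 11 histone demethylases. The counts were 5 of 12 collagen-modifying enzymes, 6 of 12 lipid genes, 4 of 11 for erythropoietin and iron, 3 of 10 AP-1 subunits, 4 of 16 kidney lineage transcription factors and 6 of 18 adhesion and matrix genes. Each was above the 6.71% of all genes, and the lists hold known HIF targets.

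At sites of both isoforms, the lists of the isoforms were ordered differently. Each of the 461 sites was numbered from 1, the highest score, within each list. HIF-1α placed 145 sites (31.5%) further forward in both of its lists than either HIF-2α list did, and HIF-2α placed 165 (35.8%) further forward, leaving 151 interleaved. Of the 145 sites 62 were at promoters (42.8%, 34.6 to 51.2%), against 7 of the 165 (4.24%, 1.72 to 8.55%) and 14.6% of the interleaved sites. Their median TSS distance was 3.24 kb against 42.8 kb, and the CpG ratio 0.549 against 0.307. The HRE core was found at 66.2% and 66.1%, and HIF-1β was called at 83.4% and 70.9%. The 91 promoter sites had a median order of 90 and 130 in the HIF-1α lists and 231 and 274 in the HIF-2α lists, whereas the 370 distal sites had 265.5, 256.5, 231.5 and 219.5.

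Promoters of glycolytic genes stood near the front of the HIF-1α lists. Of 12 shared sites nearest to glycolysis genes 10 were further forward for HIF-1α and 0 for HIF-2α. Over all 461 shared sites these shares were 31.5% and 35.8%, and of the 91 at promoters 62 were further forward for HIF-1α. The 10 sites were at promoters except those of SLC2A1 (3.24 kb) and SLC2A3 (34.6 kb). Whether glycolysis genes differ from other promoters in this order was not tested. The ENO1 promoter was number 1 in both HIF-1α lists and 61 and 115 in the HIF-2α lists. GAPDH, glyceraldehyde-3-phosphate dehydrogenase, was 2 and 7 against 231 and 308. GPI, glucose-6-phosphate isomerase, was 11 and 3 against 154 and 104. PGK1, phosphoglycerate kinase, was 36 and 57 against 247 and 361. PKM, pyruvate kinase, had 1 of the interleaved sites, at 33 and 53 against 52 and 43.

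Other promoters showed the same order. PDK1, the kinase that restrains pyruvate dehydrogenase, was 5 and 11 for HIF-1α and 290 and 333 for HIF-2α. KDM3A, a histone H3 lysine demethylase, was 4 and 5 against 88 and 126, and GBE1, the glycogen branching enzyme, 13 and 8 against 185 and 339. CA9, carbonic anhydrase IX, was 66 and 45 against 257 and 270. LDHA also counted as further forward for HIF-1α, but by little, at 15 and 19 against 21 and 22. The widest gaps for HIF-1α were at FAM162A, a HIF-responsive cell death gene (41 and 37 against 385 and 432), and 35.2 kb from ASAP2 (86 and 40 against 421 and 430).

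Sites further forward for HIF-2α were mostly far from starts, as given above. The site 42.8 kb upstream of TGFA was number 9 in both HIF-2α lists and 156 and 216 in the HIF-1α lists. The COL4A1 site was 3 and 5 for HIF-2α against 56 and 61, and CCN1, a matricellular protein, was 8 and 23 against 325 and 371. The EGFR site, in the epidermal growth factor receptor gene region, was 172 and 148 against 275 and 272, and PLIN2, a lipid droplet coat protein, 29 and 54 against 113 and 192. Exceptions at promoters were VEGFA, vascular endothelial growth factor A, at 23 and 36 for HIF-2α against 129 and 156, and BHLHE40, at 7 and 7 against 50 and 54. Of 4 shared sites with a growth gene as the nearest gene, 3 were further forward for HIF-2α and 0 for HIF-1α. Over all 461 shared sites these shares were 35.8% and 31.5%. None of the 4 sites was at a promoter, and of the 165 sites further forward for HIF-2α only 7 were. Whether growth genes differ from other distal sites in this order was not tested, and the count is small. EPAS1, which encodes HIF-2α itself, had a shared site 63.5 kb upstream that was 177 and 143 for HIF-1α against 395 and 178.

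**Figure D3:**
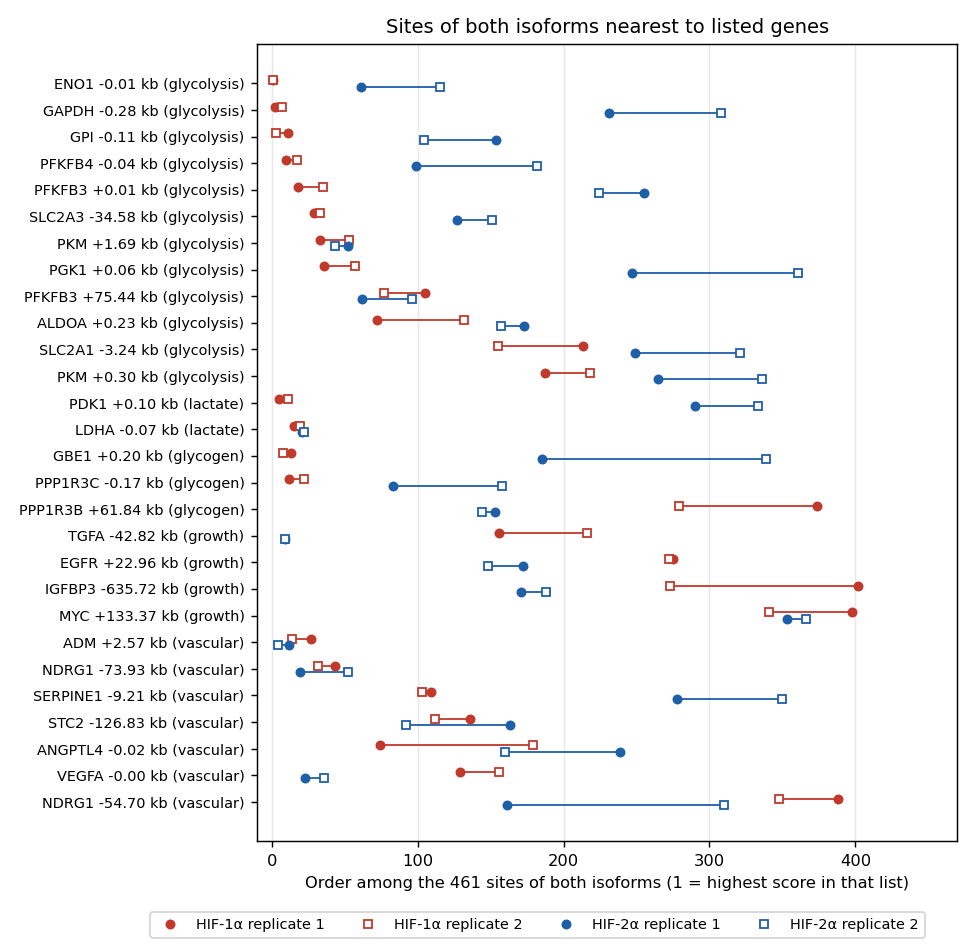
Order of sites of both isoforms (1 is the highest score) among the 461, for sites nearest to listed genes, with the distance of the site centre to the start (kb); red marks HIF-1α and blue HIF-2α, filled for replicate 1 and open for replicate 2. GAPDH and PDK1 stand left for HIF-1α, at 2 and 7 and at 5 and 11, whereas TGFA and VEGFA stand left for HIF-2α, at 9 and 9 and at 23 and 36.

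The HIF-1α replicates agreed at their strongest peaks and parted below. Replicate 1 held 5680 peaks and replicate 2 held 2120, against 4317 and 2990 for HIF-2α. All of the leading 100 peaks of each HIF-1α list overlapped a peak of the other replicate, as did 94.4% and 98.0% of the leading 250, 82.2% and 94.6% of the leading 500 and 62.9% and 70.6% of the leading 1000. HIF-2α replicates 1 and 2 shared 99.2% and 99.2% of the leading 250 and 79.3% and 84.7% of the leading 1000. At 250 peaks the means were 96.2% ± 2.55 and 99.2% ± 0 (SD over the 2 lists of an isoform), lower for HIF-1α, and at 500 they were 88.4% and 97.1%. Over whole lists, 42.8% of HIF-1α replicate 2 overlapped replicate 1, and 15.9% of replicate 1 overlapped replicate 2. Scores of overlapping peaks were correlated across peaks, with a Spearman rho of 0.695 over 904 HIF-1α pairs and 0.739 over 1221 HIF-2α pairs, where peaks are not independent replicates.

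What lay outside the overlap differed between the HIF-1α replicates. The 4773 peaks of replicate 1 that replicate 2 lacked were 39.6% at promoters and 51.2% with an HRE core, against 36.0% and 66.8% of its 901 overlapping peaks. The 1205 peaks of replicate 2 that replicate 1 lacked were 1.33% at promoters and 17.3% with a core, and their median TSS distance was 69.5 kb. HIF-1β was called at 58.4% of the overlapping peaks of replicate 1, at 8.78% of its other peaks and at 0.498% of the other peaks of replicate 2. Median scores were 399, 76.2 and 57.6 in the same order, where 50 is the lowest score kept. For HIF-2α the non-overlapping peaks were 9.04% and 1.31% at promoters in replicates 1 and 2, with a core in 36.3% and 18.3%. The share with a core in windows 2 kb away was 16.5% to 21.8% in the 4 lists.

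The number of sites per class depended on this agreement. Without HIF-1α replicate 1, 1365 HIF-1α-only and 735 HIF-2α-only sites were counted, and without HIF-1α replicate 2, 3913 and 309. Without HIF-2α replicate 1 the counts were 416 and 1931, and without HIF-2α replicate 2 they were 277 and 2573. The HIF-1α-only class was more promoter-proximal than the HIF-2α-only class in each case, by 5.75 to 53.9 percentage points, with the lowest value when HIF-1α replicate 1 was left out. Without that library the HRE core was less frequent at HIF-1α-only than at HIF-2α-only sites, 27.1% against 54.7%, and so was HIF-1β, 8.21% against 17.8%. Without HIF-2α replicate 1 the AP-1 motif was at 8.89% of HIF-1α-only and 10.05% of HIF-2α-only sites.

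**Figure D4:**
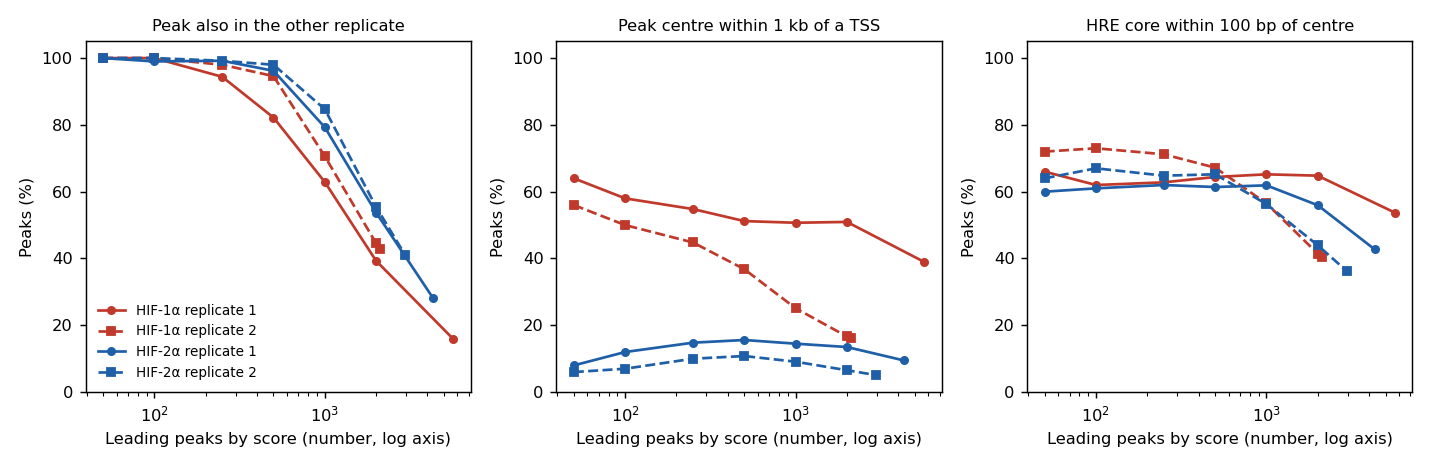
Share of peaks (%) that are also in the other replicate, within 1 kb of a TSS or with an HRE core, against the number of leading peaks taken by score (log axis); red lines are HIF-1α and blue lines HIF-2α, solid for replicate 1 and dashed for replicate 2. The promoter share of the leading 50 is 64% and 56% for HIF-1α and 8% and 6% for HIF-2α.

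Compared as whole lists, HIF-1α peaks were nearer to promoters than HIF-2α peaks in every library. The promoter share was 39.0% and 16.2% in HIF-1α replicates 1 and 2 and 9.49% and 5.08% in HIF-2α replicates 1 and 2. The groups did not overlap, but their means, 27.6% ± 16.1 and 7.28% ± 3.12 (SD, n = 2 each), differed by little more than the larger SD, at 20.3 percentage points (two-sided exact permutation test, p = 0.333, adjusted p = 0.375 over 9 tests). That p is the smallest that 2 libraries against 2 can give. Without HIF-1α replicate 1 the difference was 8.91 and without replicate 2 it was 31.7. In the leading 250 peaks of each list, a choice made after seeing the data, it was 49.8% against 12.4%.

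The CpG ratio was 0.514 and 0.319 for HIF-1α and 0.288 and 0.245 for HIF-2α (p = 0.333, exact permutation test). The median distance to a TSS was 8.29 and 36.3 kb for HIF-1α against 36.6 and 52.5 kb for HIF-2α, so HIF-1α replicate 2 lay close to HIF-2α replicate 1. HIF-2α lists held the AP-1 motif more often, at 15.3% and 13.5% of peaks, than HIF-1α lists, at 9.98% and 9.02%, with means of 9.50% and 14.4% and SDs of 0.674 and 1.33 (p = 0.333, exact permutation test, adjusted p = 0.375). It was present in 2.99% to 3.78% of windows 2 kb away. The HRE core share overlapped between isoforms, with 53.7% and 40.6% for HIF-1α and 42.8% and 36.2% for HIF-2α (exact p = 0.667). A HIF-1β peak was present at 16.7% and 25.2% of HIF-1α peaks and at 15.3% and 15.9% of HIF-2α peaks (exact p = 0.333).

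Lists of the same isoform overlapped more than lists of different isoforms. As a share of the shorter list the overlap was 42.8% within HIF-1α and 40.9% within HIF-2α, and 39.6%, 32.4%, 31.1% and 26.8% across isoforms, the first of these between the pair numbered 1. The means of 41.8% and 32.5% differed by 9.36 percentage points (one-sided exact permutation test, p = 0.333, the smallest that 3 pairings allow). The replicates 1, which were the longer lists, thus shared nearly as many peaks across isoforms as the replicates did within them.

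Where RCC4 sites of a single isoform were called in HKC-8 cells, it was mostly with the matching antibody. Of the 256 HIF-1α-only sites 163 (63.7%) were in at least 1 of 10 HIF-1α lists of HKC-8 and 44 (17.2%) in at least 1 of 10 HIF-2α lists. Of the 295 HIF-2α-only sites 33 (11.2%) and 186 (63.1%) were. A single HIF-1α list called 3.13% to 41.0% of the HIF-1α-only sites, and 5 sites were in all 10. A single HIF-2α list called 3.39% to 57.3% of the HIF-2α-only sites, and 4 sites were in all 10. The highest values came from the wild type of the knockout experiment. Of the hits each HKC-8 list made at sites of a single isoform, the share at HIF-1α-only sites was 77.5% to 100% in the HIF-1α lists (median 98.2%) and 0% to 20% in the HIF-2α lists (median 4.79%). These shares rest on 8 to 127 hits per HIF-1α list and 10 to 195 per HIF-2α list. The lists of the isoforms did not overlap in any of 5 conditions, which were 6, 16 or 48 h in 0.5% oxygen, 6 h in 3% oxygen, and wild-type cells of the knockout experiment. The means of 95.2% and 7.92% differed by 87.2 percentage points (two-sided permutation of antibody labels within conditions, exact p = 0.000257, the smallest it can give, adjusted p = 0.00231). Over distal sites alone, 107 and 288 of them, the shares were 86.6% and 3.49%. With classes redrawn without HIF-1α replicate 2 of RCC4 the difference was 56.5, and with only the 16 h conditions it was 77.0 (exact p = 0.0556, the smallest possible there). PM14 and PM9 were used in both lines, so isoform and antibody cannot be told apart in this comparison.

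NARF illustrates the first class and SMYD3 the second. The NARF site was called in 10 of 10 HKC-8 HIF-1α lists and 0 of 10 HIF-2α lists, and so were those of FAM174B, RLF and VGLL4. The SMYD3 site was called in 0 and 9, and the ROBO2 site in 0 and 10. The site 7.02 kb upstream of SNAPC1 was called in 2 HIF-1α and 10 HIF-2α lists, and was thus not a site of a single isoform in HKC-8. AIG1, with 1 HIF-1α list, and PDGFC, ADTRP and AP1S3, with 2 HIF-2α lists each, were rarely called with either antibody in HKC-8.

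HIF-1β, detected with a different antibody, was compared at the same sites in HKC-8 knockouts. Of its hits at sites of a single isoform, 72.4% and 68.0% fell at RCC4 HIF-1α-only sites in cells without HIF-2α, and 10.2% and 22.6% in cells without HIF-1α. The means of 70.2% and 16.4% differed by 53.8 percentage points, and the libraries of the knockouts did not overlap (exact permutation p = 0.333, the smallest possible). The paper describes the knockout lines as single clones, so clone and genotype cannot be told apart here. In wild-type HKC-8 cells of that experiment, whose HIF-1β lists held 6199 and 8279 peaks, HIF-1β was called at 45.1% and 56.6% of the HIF-2α-only sites and at 53.5% and 56.3% of the HIF-1α-only sites. The RCC4 HIF-1β lists held 911 and 1305 peaks. They called 3.73% and 1.69% of the HIF-2α-only sites, and 30.5% and 33.6% of the HIF-1α-only sites. The scarcity of HIF-1β calls at HIF-2α-only sites in RCC4 was thus not seen in these longer lists of another line. In the shorter wild-type HKC-8 HIF-1β lists of the other conditions, of 626 to 1793 peaks, 1.36% to 8.47% of HIF-2α-only sites were called. The same lists called 6.64% to 37.9% of HIF-1α-only sites.

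**Figure D5:**
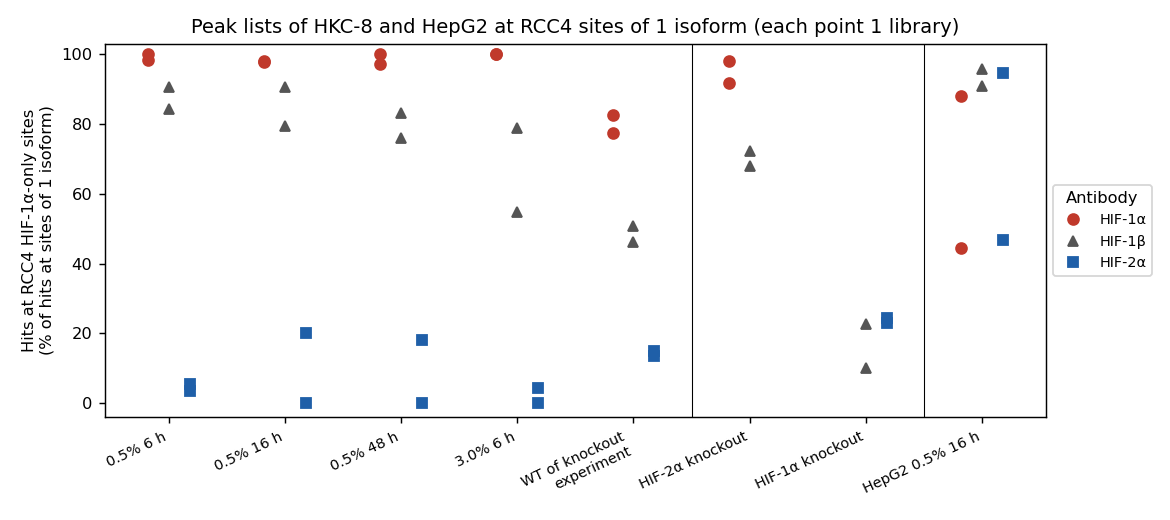
Share of hits (% of hits at RCC4 sites of a single isoform) that fall at HIF-1α-only sites, 1 point per library of HKC-8 or HepG2, by condition; circles are HIF-1α, triangles HIF-1β and squares HIF-2α. In HKC-8 wild-type cells HIF-1α lists lie at 77.5% or more and HIF-2α lists at 20% or less, while HepG2 lists labelled with the same antibody lie far apart.

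HepG2 lists did not separate by label. The library labelled HIF-1α replicate 1 put 44.4% of its hits at HIF-1α-only sites and that labelled replicate 2 put 88.2%, and the libraries labelled HIF-2α replicates 1 and 2 put 94.7% and 46.9%. The library labelled HIF-2α replicate 1 was called at 62.5% of HIF-1α-only sites, close to the 64.1% of the library labelled HIF-1α replicate 2, whereas the library labelled HIF-1α replicate 1 was called at 4.69% and that labelled HIF-2α replicate 2 at 5.86%. Whether the labels of HIF-1α replicate 1 and HIF-2α replicate 1 were exchanged was not tested; the labels were kept, and HepG2 values hold only if they are right. With HepG2 added as labelled to the HKC-8 conditions, the difference was 72.0 percentage points (exact permutation p = 0.000214).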

How the data were processed

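ChIP-seq libraries of RCC4, HKC-8 and HepG2 cells were used as 50 deposited peak lists, 1 per library; the 16 inputs entered through the authors' peak calling. Per the labels and the study's methods, the authors trimmed adaptors (Trim Galore 0.3.3), aligned to GRCh37 (BWA 0.7.5a-r405), dropped mapping quality under 15 (SAMtools 0.1.19), blacklisted regions (bedtools 2.17.0) and duplicates (Picard 1.106), and called peaks with MACS against control. Whether the lists went through the study's later filters, a further caller and a background count, is not given in the sources used here. The deposited score is taken from its values as −10 log10 of the peak's p, with a minimum of 50 (p of 1e-05), and was used only to rank peaks within a list. Read depth is not in the lists, so a missing peak is not evidence of missing binding.

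Peaks on chromosomes 1 to 22, X and Y were kept, which dropped 43 of the 4 lists. Overlap was 1 bp or more; positions are 1-based. Starts were those of 89204 protein-coding transcripts of GENCODE 44 on GRCh37, and letters were read from GRCh37 within 100 bp of each centre, since no summits are given. Named sites are the 10 with the best mean percentile rank per class and every site nearest to a gene in 15 lists (190 genes), and others the text names at the ends of an order; members and lists were chosen with earlier results of these data known. Tests were exact permutations over libraries, adjusted by Benjamini-Hochberg. Replicate numbers were not used as a block in the main tests. A correlation of deviations of 0.044 over 11066 loci cannot exclude pairing, since 78.4% of the loci were in 1 list only. At loci called in 1 list of each isoform, the replicate numbers were equal at 633 and 60 and unequal at 38 and 16. The lists numbered 1 were also the longer, and the part of pairing was not tested. Alternatives were a score of at least 100, lists of equal length, 50% overlap, 200 bp windows, merged loci, other distances and windows, other numbers of leading peaks, subsets of sites or conditions, and leaving out each library. Code was tested on simulated lists (Python 3.11.15, numpy 2.4.6, pandas 2.3.3, scipy 1.17.1, pysam 0.24.0, matplotlib 3.10.9).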

Additional observations from a re-analysis of the deposited data

How the results depend on the processing

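Over 147 alternatives for the 13 comparisons, 126 gave the same result: the same direction and side of the threshold for a test, a site count within 1.5 times, or a move of an untested value smaller than the spread between replicates. The tests of 2 libraries against 2 could not pass the threshold under any. A score of at least 100 gave 145 HIF-1α-only, 171 HIF-2α-only and 259 shared sites, in place of 256, 295 and 461. Leaving libraries out gave 277 to 3973, 309 to 2604 and 475 to 1694, since fewer lists then had to hold or lack a peak. The HKC-8 difference of 87.2 was 77.0 percentage points with only the 16 h conditions (exact p = 0.0556, the smallest possible there) and 56.5 to 83.5 without single replicates. It was 56.5 over sites with a HIF-1β peak in RCC4 and 60.1 in 200 bp windows. The agreement of the leading 250 peaks, 3 percentage points lower for HIF-1α (−3), was −6.6 at a score of at least 100, −6 in 200 bp windows, −8.7 for 500 peaks, −15.25 for 1000 and reversed to 0.5 for 100; the cause was not tested, and no value was computed without a library.

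Without single replicates the list differences ranged from 8.91 to 31.7 for promoters, −0.723 to −0.0818 for log10 distance, 1.10 to 14.3 for HRE, −5.83 to −3.96 for AP-1, 0.0529 to 0.248 for CpG, 1.02 to 9.53 for HIF-1β, 4.91 to 13.2 for list overlap and 27.5 to 46.8 for HIF-1β in knockouts. Alternatives for the classes were chosen after seeing the data: without HIF-1α replicate 1 the HIF-1α-only minus HIF-2α-only share was −27.6 for the HRE core and −9.62 for HIF-1β, in place of positive values, and the cause was not tested. Over all single-library and single-number omissions these ran from −27.6 to 46.3 and from −9.62 to 45.1, the promoter share from 5.75 to 53.9 and AP-1 from −16.0 to −1.15. With the replicate block the promoter difference stayed at 20.3 (exact p = 0.5, the smallest possible) and the HKC-8 p was 0.00195; the block changed no call. Unknown depth limits every absence of a peak.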
